A study of Caenorhabditis elegans with 6 samples.

Results

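Editing-enriched regions are stretches of the genome where sequenced RNA carries clustered A-to-G changes. They are described here for the gene-dense centres of the autosomes and for chromosome X of the nematode Caenorhabditis elegans. Members were taken by position alone from the authors' largest list, made with the aligner GNUMAP from unique and repeat reads. All regions on X were taken, together with autosomal regions whose midpoint lay between 25 and 75% of the chromosome. This gave 238 of the 664 regions, 193 in autosome centres and 45 on X. The other 426 regions lie in the autosome arms, the outer 25% at each end.

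Double-stranded RNA (dsRNA) forms when a transcript folds back on an inverted repeat or pairs with a transcript of the opposite strand. ADAR enzymes convert adenosine to inosine within dsRNA, and inosine is read as G, so a cluster of such changes marks RNA that was double-stranded in the animal. In C. elegans, ADR-2 is the active deaminase, while the Dicer enzyme DCR-1 and its partner RDE-4 take dsRNA into RNA interference. The autosome arms of this species are rich in repeats and recombine often. The centres hold most conserved genes, and X has a more even layout.

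RNA came from 6 samples, 1 per combination of strain, stage and antibody. Mixed-stage worms of the dcr-1(mg375) mutant, whose Dicer is altered but which is viable, and of the wild-type strain N2 were sampled with J2, an antibody that binds dsRNA. Embryos of dcr-1(mg375) and of N2 were sampled with an antibody against RDE-4 and, apart from that, with one against DCR-1. All worms were grown at 20 °C. Whole worms or embryos were used, so no tissue can be named for a region. The 6 read sets were merged ahead of region calling. No region can be assigned to a strain, stage or antibody, nothing was replicated, and no depth per region is known. Intervals and p values below cover only the counting of loci, which are not independent replicates of a condition.

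The longest region of the list, 8774 bp, was on X, and the longest in the autosome centres had 3756 bp. The median length was 161 bp in autosome centres (interquartile range 80 to 603 bp) and 140 bp on X (84 to 620 bp), against 128 bp in the arms (80 to 428.5 bp). Short regions of 100 bp or less made up 34.7% in centres and 37.8% on X, against 39.9% in the arms. Regions over 1 kb numbered 26 of 193 in centres and 7 of 45 on X, against 45 of 426 in the arms and 78 of 664 over the whole list. The authors' deposited score, a whole number of unstated meaning, had a median of 5 in centres and 6 on X. It reached 212 in centres and 309 on X. Plus and minus strands held 95 and 98 regions in centres, and 26 and 19 on X.

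The centres of the 5 autosomes are given one by one. On chromosome III the median was 260 bp and the median score 9, the highest of the centres in both values. On chromosome V the upper quartile was 891 bp and the longest region 3756 bp. On chromosome IV, which held the most regions (45), the median was 135 bp and the highest score 28. On chromosome II the median was 171 bp and the longest region 1477 bp, and on chromosome I the values were 158 and 1412 bp. These are descriptions without a test.

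**Figure D1:**
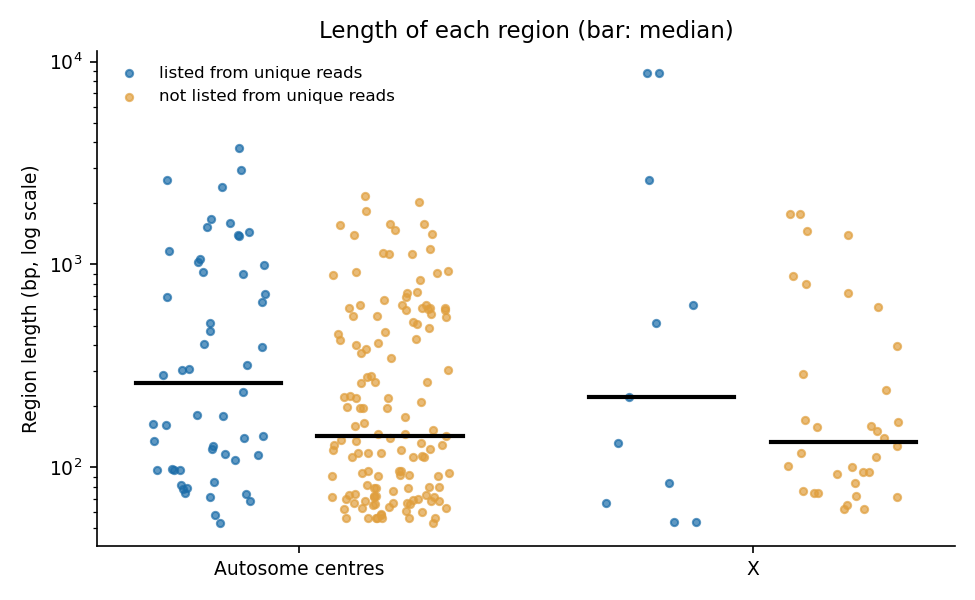
Length of each region (vertical axis, bp, log scale) in autosome centres (left) and on X (right), with bars at the medians. Regions are split by whether any base, on either strand, lay in a region that GNUMAP listed from unique reads. Regions listed from unique reads had medians of 260.5 bp in centres and 222 bp on X, and those not listed from unique reads had medians of 143 bp in centres and 133.5 bp on X.

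In the arms, regions listed from unique reads had a median of 175 bp and the others one of 103 bp. Regions that overlap on either strand were counted once as a locus in all tests that follow. The list held 581 such loci, 158 in autosome centres, 39 on X and 384 in the arms. Of these, 50.4% were at or above the median locus length of 129 bp by construction. The share was 54.4% in centres and 53.8% on X, a difference of 0.584 points (95% interval -15.9 to 17.6, two-sided Fisher's exact test, adjusted p = 1). Centres and X together had 54.3%, against 48.4% in the arms (difference 5.88 points, -2.70 to 14.3, exact test, adjusted p = 0.379). Among loci without unique-read overlap alone, a split made after the values were seen, the shares were 51.4% and, in the arms, 35.3%, a difference of 16.1 points that passed (exact test, adjusted p = 0.0438). Among loci with it the difference was 3.02 points (exact test, adjusted p = 1). All p values of this kind were adjusted by Benjamini-Hochberg over the tests of a setting, a family of 12 in the main setting.

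Loci were denser in autosome centres than on X. The centres held 3.83 loci per Mb and X held 2.20 loci per Mb, a ratio of 1.74 (1.22 to 2.54, exact binomial test against length, two-sided, adjusted p = 0.00834). The test takes loci as independent although some lie close together, so its p value may be too small. With regions within 2 kb merged, the ratio was 1.77 (exact binomial test, adjusted p = 0.00927). The arms had 9.30 loci per Mb. Among autosomes, the density in the centre ran from 3.06 loci per Mb on V through 3.80 on II, 3.92 on III and 4.25 on I to 4.34 on IV, each above the value on X. The difference did not pass when regions with a score under the list's median of 5 were left out (2.08 in centres and 1.52 on X, ratio 1.37, exact test, adjusted p = 0.339). It also did not pass among loci without unique-read overlap alone (ratio 1.63, exact test, adjusted p = 0.0886) or among loci with it alone (ratio 2.10, 0.144).

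Within X no concentration towards the ends was detected. Its outer 25% at both ends held 19 loci (2.14 per Mb) and its middle 50% held 20 (2.26 per Mb), a ratio of 0.95 (0.48 to 1.88, exact binomial test, adjusted p = 1). The interval is wide and reaches a 1.88-fold higher density at the ends. In steps of 10% of its length, X held 8 loci in the first step and 2 to 6 in each of the others. Of those 8 loci, 4 lay in 1 cluster from 133781 to 137269. The widest stretch without a listed locus on X ran from 1012208 to 3130074, with midpoints 2.12 Mb apart. In the centres the widest such distance was 1.88 Mb, on V from 11154138 to 13037055, and the smallest of these maxima was 0.924 Mb, on III.

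**Figure D2:**
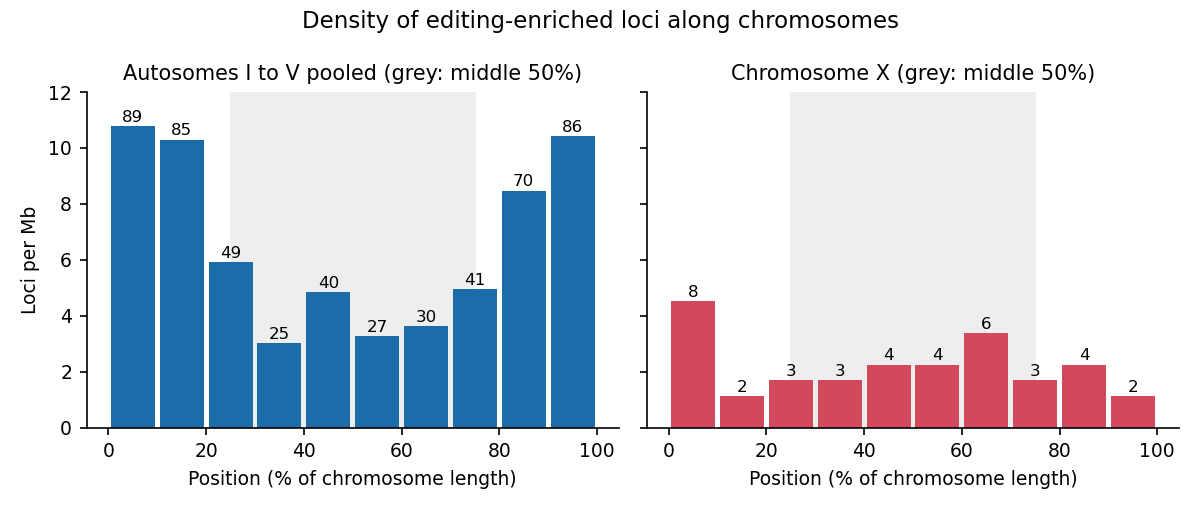
Loci per Mb (vertical axis) in steps of 10% of chromosome length (horizontal axis, %), for the 5 autosomes pooled (left) and X (right), with the number of loci above each bar and the middle 50% shaded. Autosomal density was 3.03 to 5.94 loci per Mb in the steps between 20 and 80% and 8.48 to 10.8 outside them, while X stayed between 1.13 and 4.52.

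The covered bases of X depended on a single locus. Loci covered 1715 bases per Mb in autosome centres and 1324 bases per Mb on X, against 3181 in the arms. Without the longest locus of each class the values were 1624 in centres and 829 on X, against 3082 in the arms. The longest locus made up 37.4% of all covered bases on X. It runs from 4333426 to 4342204 on X (ce10, 8779 bp) and consists of plus-strand and minus-strand regions of 8774 bp each, with scores of 296 and 309, shifted by 5 bp against each other. Unique reads listed 117 of its bases, and neither Novoalign list had any. The longest locus of the centres, on V from 9086825 to 9090580, made up 5.31% of covered bases there.

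Regions on both strands of the same place were more frequent in the pool of centres and X than in the arms. Over all loci of the list, 13.8% held regions on both strands. The share was 20.9% in autosome centres (33 of 158, interval 14.8 to 28.1%) and 15.4% on X (6 of 39, 5.86 to 30.5%), a difference of 5.50 points that did not pass (-9.90 to 16.2, Fisher's exact test, adjusted p = 0.872). Centres and X together had 19.8% (39 of 197), against 10.7% in the arms (41 of 384), a difference of 9.12 points (3.05 to 15.8, exact test, adjusted p = 0.0134). The test takes loci as independent, but mirror-image places, described below, entered as separate loci. The loci on I from 7779025 and from 7782334, both with 2 strands, are an example. The p value may therefore be too small and the interval too narrow. Chromosome III had the highest share among the centres, 10 of 27 loci (37.0%, 19.4 to 57.6%), and IV the lowest, 5 of 38 (13.2%, 4.41 to 28.1%). The pooled difference to the arms did not pass when scores under 5 were left out (7.03 points, exact test, adjusted p = 0.339). X alone was not tested against the arms, and its interval includes their share of 10.7%.

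The excess of strand pairs was large among loci that unique reads also listed. Of these, 13 of 53 in centres and X held both strands (24.5%), against 7 of 211 in the arms (3.32%, exact test, adjusted p = 5.85e-05). Among loci not listed from unique reads the shares were 18.1% (26 of 144) and 19.7% in the arms (34 of 173). The difference was -1.60 points (exact test, adjusted p = 1). These splits were made after the values were seen, and the difference between them was not itself tested. In 7 of the 13 loci, unique reads listed each strand on its own. They are on I from 10819145 to 10820522, on III from 3836896 to 3838300, from 5459446 to 5460973 and from 7362816 to 7364903, on V from 8338445 to 8339889 and from 9086825 to 9090580, and on X from 1011575 to 1012208. In the other 6, unique reads gave a region on 1 of the strands. In the arms, unique reads listed each strand in 3 of the 7 such loci and 1 of the strands in 4.

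Paired strands rarely had the same limits, in centres and on X as in the arms. Overlapping plus and minus regions numbered 35 pairs in centres and 6 on X, and shared a median of 161 bp in centres and 499 bp on X. The shorter region lay wholly inside the longer one in 15 and 2 of these pairs, against 19 of 42 in the arms. The shared part covered at least 80% of the joint span in 5 pairs of the centres and 2 of X. In the arms it did so in 9 of 42 pairs, and over the whole list in 16 of 83. One of the 5 in the centres was on II. It combined a plus region from 11440927 to 11442403 (score 60) with a minus region from 11440983 to 11442383 (score 56). This pair had no support in another list. On X, a plus region from 12854978 to 12856446 (score 70) and a minus region from 12855096 to 12856491 (score 66) shared 1351 bp, likewise without support. Others were lopsided. On I, the plus region from 10819145 to 10820522 scored 153, while the minus region inside it from 10819204 to 10819330 was 127 bp long and scored 5. On III, the plus region from 7601936 to 7603611 scored 137 and the minus region inside it from 7602151 to 7602435 scored 26.

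Loci with both strands were also longer, in part by construction. The length of such a locus is the joint span of its overlapping regions. Their median length was 1137 bp in centres and 1123.5 bp on X, against 115 and 127 bp for loci on a single strand. The arms had the same pattern, with 897 bp for both strands and 110 bp for a single strand. Among loci at or above the median length, 37.2% in centres and 23.8% on X held both strands, against 17.2% in the arms. The part of length in the difference to the arms was not tested.

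Neighbouring loci were more frequent in centres and X than in the arms at a distance of 2 kb, but not at 5 kb. Over the whole list 23.4% of loci had another locus within 2 kb. The share was 31.0% in centres (49 of 158) and 28.2% on X (11 of 39), which did not differ detectably (2.81 points, -14.1 to 16.7, Fisher's exact test, adjusted p = 1). Centres and X together had 30.5%, against 19.8% in the arms (10.7 points, 3.30 to 18.4, exact test, adjusted p = 0.0154). The tests here take loci as independent, but a locus and its neighbour were both counted. Their p values are therefore too small and their intervals too narrow. Within 5 kb the shares were 37.6% and, in the arms, 34.9% (exact test, adjusted p = 0.786). The difference at 2 kb also did not pass among loci not listed from unique reads (34.7% in centres and X and 33.5% in the arms, exact test, adjusted p = 1). Nor did it pass among those listed from them (18.9% in centres and X and 8.53% in the arms, exact test, adjusted p = 0.144). It did not pass either with the middle 33.3% of each autosome as centre (28.9% and, in the arms, 21.5%, exact test, adjusted p = 0.176) or with limits 1 Mb further out (27.2% and, in the arms, 20.1%, 0.148).

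Most clusters were small and held both strands, in centres and on X as in the arms. Joining regions within 2 kb left 50 clusters of at least 2 regions, strand pairs included, in centres and 9 on X, with 57.5% and 48.9% of the regions, against 33.8% in the arms. Both strands were present in 46 of the 50 and in all 9, and likewise in 56 of 60 in the arms. Plus and minus regions were equal in number in 40 of the 50 and 8 of the 9, against 47 of the 60 in the arms. A single locus with both strands forms a cluster by itself, so these strand counts were in part fixed by the definition. The largest cluster had 6 regions, 3 on each strand, on IV from 7357255 to 7363801. Clusters of 3 regions followed in 7 places of the centres. On I, the clusters from 7776993 to 7779623 and from 7782334 to 7784964 each spanned 2631 bp and held 891 bp of regions, with plus and minus numbers exchanged. The one on V from 8338445 to 8340728 had all 3 regions listed from unique reads, and the other 6 had none. On X, clusters of 4 regions lay from 133781 to 137269, with 3 plus and 1 minus region, and from 12191479 to 12195596, with 2 of each strand.

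The positions within several clusters were mirror images. Regions of at least 100 bp were searched for a partner of the same length (within 5 bp) that started more than 20 bp away and lay at most 10 kb from it, without use of strand. The rule was set after the clusters had been seen, so the counts are descriptions. There were 10 such pairs whose left region lay in a centre and 1 on X, and 8 in the arms. Each of the 19 pairs joined opposite strands, and each had exactly equal lengths. No region of any pair was listed from unique reads. Over the list, 9.18% of regions of at least 100 bp belonged to such a pair, with 21 of 155 in centres and X (13.5%) and 17 of 259 in the arms (6.56%). Scores were identical in 8 of the 11 pairs of centres and X and within 2 of each other in 10. Of the 8 pairs in the arms, 5 had identical scores and all 8 were within 2. Novoalign listed both members of 3 pairs of centres and X and 1 member of another, and both members of 2 pairs in the arms.

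The longest mirrored pair was on X, with a plus region from 12192195 to 12193978 and a minus region from 12193083 to 12194866, each 1784 bp, with scores of 44 and 42. These regions overlap by 896 bp. Further out, a minus region from 12191479 to 12191636 (score 10) and a plus region from 12195425 to 12195596 (score 11) share their midpoint to within 3.5 bp. Next in length, on IV, a minus region from 7357259 to 7358385 and a plus region from 7362340 to 7363466 had 1127 bp and a score of 3 each. Further in, overlapping them by 60 and 16 bp, were a plus region from 7358326 to 7359903 (score 15) and a minus region from 7360791 to 7362355 (score 16). These had 1578 and 1565 bp and a midpoint 18.75 bp away. They belong to the cluster of 6 regions on IV, in which plus and minus strands alternate and no region is in another list.

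On I, 3 pairs shared a midpoint exactly. The outer pair was 219 bp long with a score of 8 in each member, with its plus member from 7776993 to 7777211 and its minus member from 7784746 to 7784964. The next was 599 bp long, from 7779025 to 7779623 and from 7782334 to 7782932, with scores of 5 and 6. The last, 73 bp long with scores of 3, lay within the limits of the 599 bp regions and had the strands exchanged. Novoalign also listed the 599 bp pair, over 599 bp of one member and 529 bp of the other. A further pair on I, 197 bp long with scores of 3, had its members at 5979338 to 5979534 and 5982422 to 5982618, and a 71 bp pair of exchanged strands shared its midpoint.

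The other mirrored pairs were on II, IV and V and at the limit of the centre on I. On IV, pairs of 607 bp (from 8406829 and from 8409728, scores of 2) and of 558 bp (from 9057450 and from 9061509, scores of 5) were 2292 and 3501 bp apart. Members of a 146 bp pair on IV, from 11608491 and from 11618202, were 9565 bp apart and were both listed by Novoalign. On II a 112 bp pair with scores of 6 lay from 7043247 and from 7046967. On V, the members of a 632 bp pair from 14348041 and from 14348132 overlapped and had unequal scores of 3 and 14. A second 632 bp pair straddled the limit of the centre on I. Its minus member, from 11302781 to 11303412, was the region nearest to a limit on the inside (1.22 kb), and its plus member, from 11309911 to 11310542, lay 5.91 kb outside. The other nearest regions were from 11301474 to 11301529 inside (2.82 kb) and from 3762333 to 3762435 outside (5.72 kb), also on I. Their scores were 2 and 4.

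**Figure D3:**
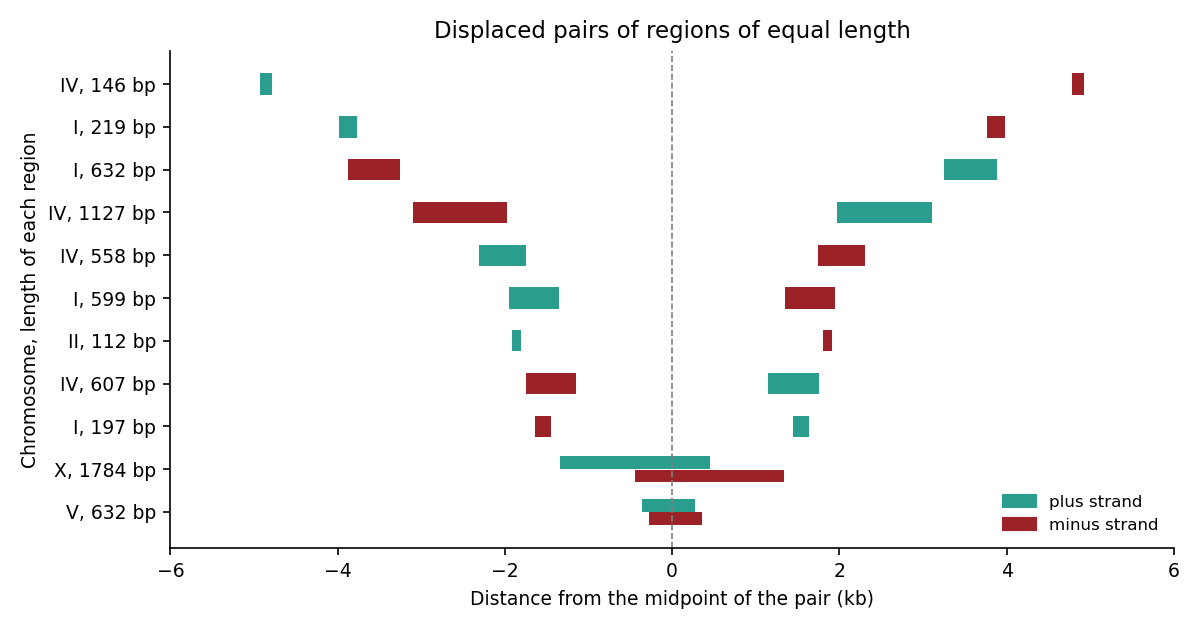
Mirrored pairs of equal-length regions with the left member in an autosome centre or on X, 1 pair per row, plotted by distance from the midpoint of the pair (kb) and coloured by strand. In each of the 11 rows the members lie on opposite strands, and in the rows for X (1784 bp) and V (632 bp) they overlap.

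Equal length also occurred between distant places. Among regions of at least 200 bp, some on different chromosomes matched to the base, such as 1412 bp on I (minus strand from 5974728, score 55) and on II in an arm (minus strand from 11757578, score 19). A length of 666 bp occurred on III in the centre (from 7770299, score 9) and on V in an arm (from 4627650, score 57). A further region of 219 bp, like the outer pair on I, lay in an arm of I from 2733532. On X, a plus region of 222 bp from 8901635 had the length of a minus region in the centre of II from 7502487. Whether such regions are copies of a repeat was not tested, since no genome of build ce10 was used here. How often lengths would match by coincidence was not tested either.

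Of the 5 shares tested, support by unique reads had the largest difference between centres and X and the arms. Over the whole list, 45.4% of loci overlapped a region of the GNUMAP unique list. The share was 27.8% in centres (44 of 158, 21.0 to 35.5%) and 23.1% on X (9 of 39, 11.1 to 39.3%), a difference of 4.77 points that did not pass (-11.8 to 17.6, Fisher's exact test, unadjusted p = 0.687, adjusted p = 1). Centres and X together had 26.9%, against 54.9% in the arms, a difference of -28.0 points (-35.6 to -19.8, exact test, adjusted p = 1.14e-09). The direction had been seen in earlier results of these data and is not independent evidence. Chromosome III had the highest share among the centres, at 37.0%, and chromosome IV the lowest, at 15.8%. Where unique reads listed a locus, all its bases were covered in 32 of the 44 loci in centres and 6 of the 9 on X, against 183 of 211 in the arms.

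Support by the second aligner did not pass the test. Over the whole list 26.7% of loci overlapped a Novoalign region. In centres the share was 22.8% (36 of 158, 16.5 to 30.1%) and on X 20.5% (8 of 39, 9.30 to 36.5%), a difference of 2.27 points (-13.8 to 14.3, exact test, adjusted p = 1). Centres and X had 22.3%, against 28.9% in the arms (-6.57 points, -13.6 to 1.07, exact test, adjusted p = 0.224). The sign turned among loci not listed from unique reads, with 14.6% in centres and X and 9.83% in the arms (4.76 points, exact test, adjusted p = 0.752). Among loci listed from unique reads the difference was -1.15 points (exact test, adjusted p = 1). In centres, 17 of the 36 supported loci were not listed from unique GNUMAP reads, and on X 4 of the 8, against 17 of 111 in the arms. Supported loci were longer, with medians of 399 bp in centres and 344 bp on X, against 116 and 101 bp without support. The same held in the arms, with 353 bp and, without support, 101 bp. Support needed 1 bp of overlap whatever the length of a locus, and the part of this in the difference was not tested. Loci in no other list made up 61.4% in centres and 66.7% on X, against 40.6% in the arms.

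**Figure D4:**
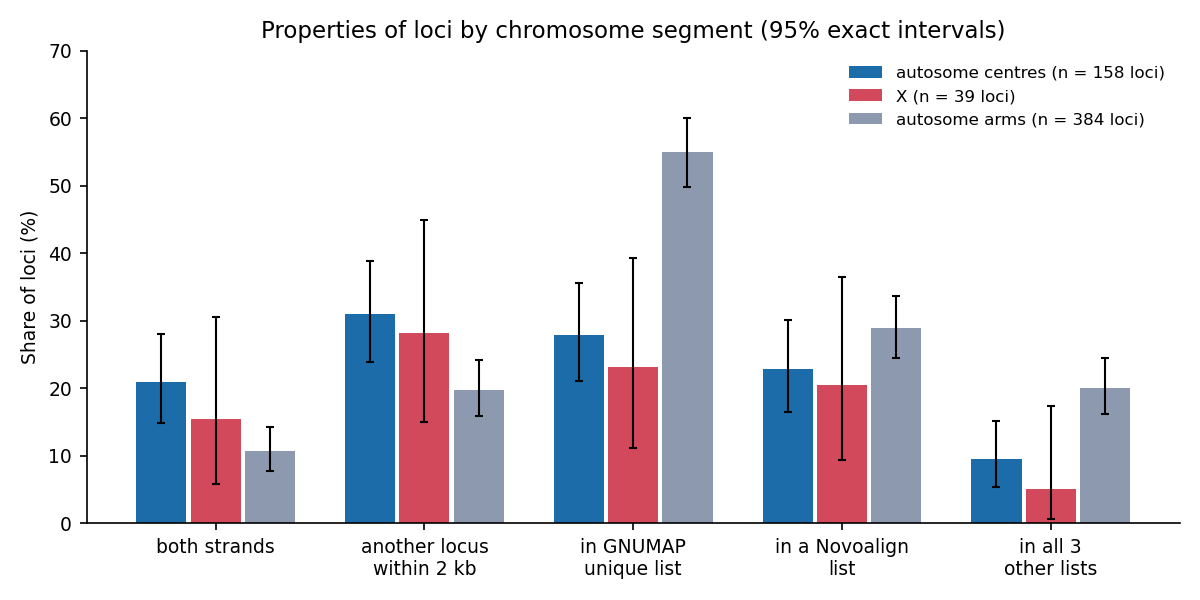
Share of loci (vertical axis, %) with a given property in autosome centres, on X and in autosome arms, with exact Clopper-Pearson 95% intervals. The share in the GNUMAP unique list was 27.8% in centres and 23.1% on X, against 54.9% in the arms, and the intervals of centres and X overlapped for every property.

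All 3 other lists overlapped 16.2% of loci over the whole list, 9.49% in centres (15 of 158) and 5.13% on X (2 of 39), against 20.1% in the arms (77 of 384). The locus from 1011575 to 1012208 (634 bp, score 37) was listed in full from unique reads and over 629 bp by either Novoalign list. That from 7144654 to 7144785 (132 bp, minus strand, score 6) was listed in full from unique reads and over 123 bp by Novoalign. In the centres, every base of 3 of the 8 longest such loci was in each list, on III from 7601936 to 7603611, on I from 10819145 to 10820522, and on IV from 8124350 to 8124754. The last of these had a score of 3. Single-strand loci on V from 13037055 to 13038648 and from 13135010 to 13135902, both on the minus strand, were also listed in full from unique reads. Novoalign with unique reads covered 327 of 1594 bp in the first and 885 of 893 bp in the second.

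Among the 8 longest loci of the centres, 1 was in all lists. That locus, on V from 9086825 to 9090580, had 1688 bp listed from unique reads, 548 bp by Novoalign unique and 1964 bp by Novoalign with repeats. On III, the locus from 10219048 to 10221958 carried regions on both strands with scores of 126 (plus) and 82 (minus), of which unique reads listed 67 bp and Novoalign none. The locus on III from 7362816 to 7364903 joined a minus and a plus region of 1162 and 997 bp, with scores of 44 and 38, that overlap by 71 bp. Unique reads listed 492 bp there. On V, plus-strand loci from 8848594 to 8850758 (score 91) and from 8853115 to 8855148 (score 77) were not listed from unique reads. Novoalign with repeats covered 505 and 542 bp of them. On IV, the locus from 8256192 to 8258288 had 322 bp in that list, and those from 7357255 to 7359903 and from 7360791 to 7363801 had no support.

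Of the 5 longest loci on X, 3 were in no other list. These were the locus from 12192195 to 12194866 described above, the one from 12854978 to 12856491, and a plus-strand locus from 653872 to 654747 (876 bp, score 16). The locus from 11441117 to 11443721 was on the plus strand with a score of 45. It had 2071 of its 2605 bp in the unique list and 1583 bp in Novoalign with repeats. The remaining locus is the 8779 bp pair of strands, with 1.33% of its bases listed from unique reads.

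**Figure D5:**
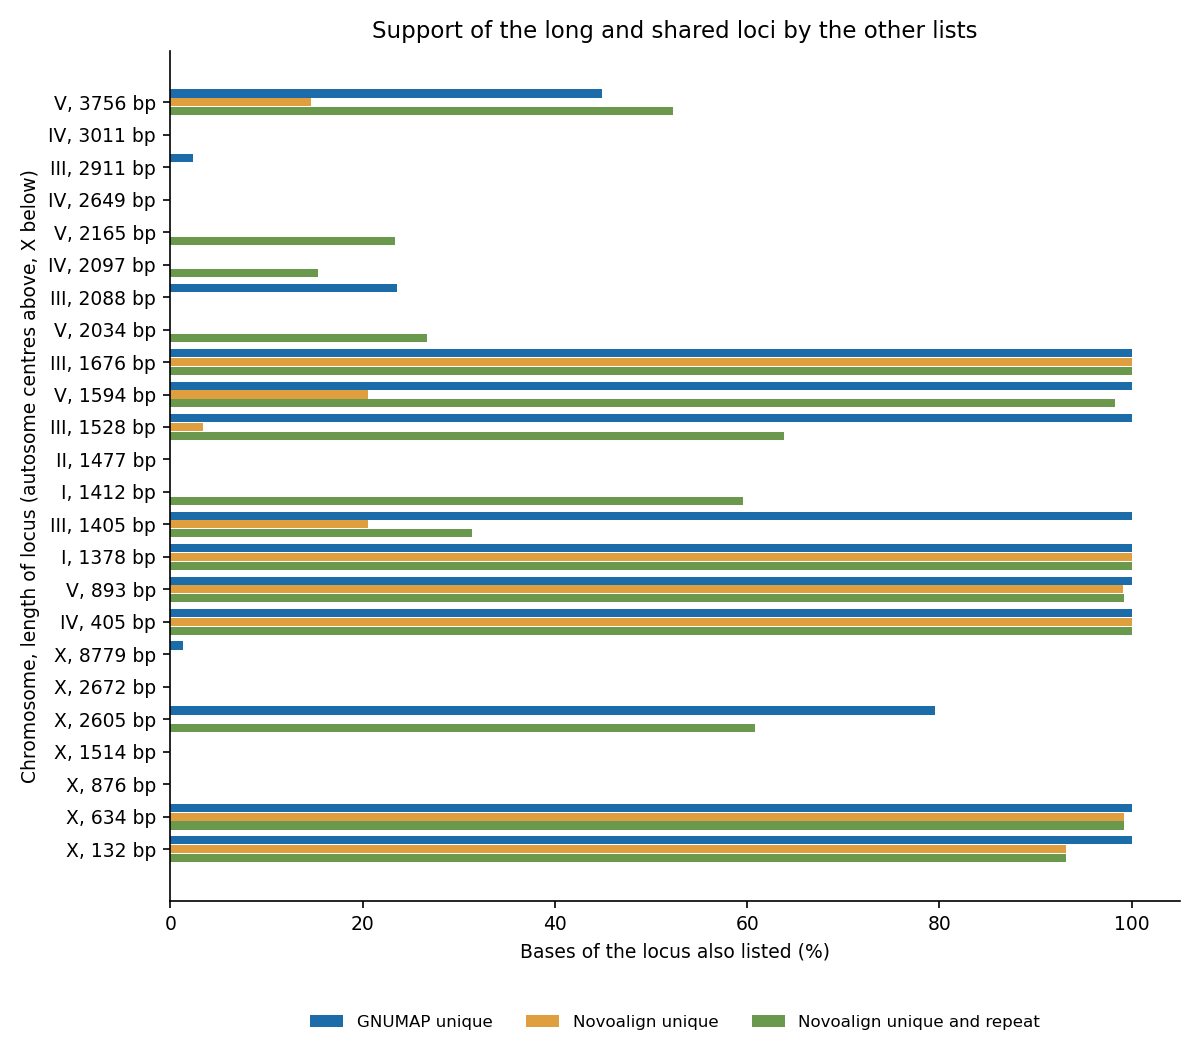
Share of the bases of each long or shared locus (horizontal axis, %) that the 3 other lists also hold, with autosome centres above X and loci named by chromosome and length. On X the loci of 634 and 132 bp are listed over 93.2% or more by every list, while those of 2672, 1514 and 876 bp have no bar.

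In the other direction, part of the Novoalign regions lay outside the larger GNUMAP list, in these segments as in the arms. Every GNUMAP unique region was in the larger list, 50 in centres and 10 on X. Of Novoalign unique regions, 18 of 19 in centres and 2 of 2 on X overlapped it, against 80 of 97 in the arms. Of Novoalign regions with repeats, 45 of 69 in centres (65.2%) and 9 of 15 on X did, against 127 of 176 in the arms (72.2%). The longest that did not overlap was 2359 bp in the centres and 848 bp on X.

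Host and nearest genes are not named, and no sequence is printed, because the annotation used here is of build WBcel235 and the regions are in build ce10.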

How the data were processed

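RNA bound by J2, RDE-4 or DCR-1 antibodies was sequenced from 6 samples, and reads were pooled into 1 set of alignments, per the series' design text. Per the submitters' processing notes, Novoalign 2.07.13, SAMtools 0.1.19 and build ce10 were used. The sources used here do not state the calling rule. The files deposited by the authors hold a position, strand and score per region, and the score is used only to describe and filter. Positions are 1-based ce10.

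Python 3.11.15, pandas 2.3.3, scipy 1.17.1 and statsmodels 0.14.6 were used, and code was tested on simulated regions. The last annotated base of WBcel235 stood in for chromosome length. No region lay within 1 kb of a limit, and moving limits by 10 kb either way made 6 class changes. Regions sharing 1 bp on either strand formed a locus, and support by another list likewise needed 1 bp. P values were adjusted over the tests of a setting. Intervals are at 95%, Clopper-Pearson for shares, Newcombe for differences and exact binomial for ratios. Regions named are the 8 longest loci in centres and 5 on X, all X loci and the 8 longest centre loci in all lists, the longest with both strands per chromosome, the largest clusters, regions nearest the limits and those of equal length. The loci where unique reads listed each strand, a few strand pairs and the mirrored-pair rule were chosen after values were seen. Members and lists were chosen with earlier results of these data known.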

Additional observations from a re-analysis of the deposited data

How the results depend on the processing

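The 12 results were recomputed under 9 other settings and under 2 splits chosen after seeing the data, wherever the choice touched them. The splits are loci listed or not listed from unique reads. They are called below loci with or without unique reads, though reads per locus are not known. The share in the GNUMAP unique list, centres and X minus arms, passed Fisher's exact test under all 8 of the other settings that touch it (-30.6 to -20.5 points). With scores under the median left out, the strand-pair difference to the arms was 7.03 points and the density ratio of centres to X 1.37, and neither passed. The neighbour difference to the arms did not pass with the middle 33.3% as centre (7.33 points), limits moved outward by 1 Mb (7.14) or a distance of 5 kb (2.67). Among loci without unique reads it was 1.20 points and among loci with them 10.3, neither passing, and the density ratios of centres to X were 1.63 and 2.10, also not passing. Without unique reads, the strand-pair difference to the arms was -1.60 points, the Novoalign difference 4.76 and the length difference 16.1, the last passing (exact test, adjusted p = 0.0438). Values that had not passed changed sign as follows. The ratio of X ends to X middle was 1.08 with high scores, 1.13 with the middle 33.3%, 1.10 with moved limits and 1.25 with unique reads. Centres minus X in length was -0.198 points with moved limits and -5.3 with unique reads. In neighbours it was -1.17 with moved limits and -2.46 without unique reads, and in Novoalign support -1.26 with unique reads. The cause of these changes was not tested. Chromosome V left out, regions counted singly or merged within 2 kb, same-strand overlap and 50% overlap changed no call. No paired analysis was possible because each group has 1 sample and all samples were pooled. Few loci on X limit every comparison with it.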
